A study of Homo sapiens with 9 samples.

Results

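Proline metabolism is described through 6 genes, of 60648 in the count table, across 9 RNA-seq libraries of 3 human cell lines. They are PYCR1, PYCR3, ALDH18A1, OAT, PRODH and ALDH4A1, taken by name through their Ensembl gene IDs. The set was chosen because PYCR1 had almost no reads in TC4-2A and TL4-2A cells, so its own level is given as a description, with no test. All 6 genes were among the 19473 that passed the filter on low counts. PYCR1 passed it through T-REx cells alone.

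TC4-2A cells express a circular RNA that joins exons 2A, 2B, 3 and 4 of the genes SMN1 and SMN2, which encode the survival motor neuron protein. TL4-2A cells express a linear RNA of the same exons. T-REx cells, the parental line, carry no insertion. HEK293 is a human embryonic kidney line, and all 3 lines derive from it. All cells, T-REx included, had doxycycline (Dox), which switches the constructs on, for 96 h, and 3 libraries were made from each line. Each construct is represented by 1 cell line, so its effect and any other property of that line cannot be told apart. Neither the methods nor the labels state whether a line is a clone or a pool.

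Proline is made from pyrroline-5-carboxylate (P5C). Mitochondria make P5C from glutamate through ALDH18A1, also known as P5C synthase, or from ornithine through OAT, ornithine aminotransferase. P5C is then reduced to proline by reductases, among them PYCR1 in mitochondria and PYCR3 in the cytosol. PRODH, proline dehydrogenase, turns proline back into P5C, and ALDH4A1 oxidises P5C to glutamate. Cultured cells that divide rapidly make much of their proline from glutamine, and PYCR1 is known as a gene that is highly expressed in many tumours.

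Total counts ranged from 16561680 to 21491977 per library, and the TMM scaling factors from 0.9906 to 1.014. Levels are in CPM, the counts of a gene per 1000000 counts of the scaled library. SMN1 and SMN2 together averaged 94.7 CPM in TC4-2A, 62.4 CPM in TL4-2A and 54.8 CPM in T-REx cells. These counts cannot tell RNA of a construct, which carries exons of these genes, from RNA of the genes themselves. The summed level of the HEK293-like markers IRS4, NEFL, NEFM, PAX2 and LIN28B was 3020 to 3100 CPM in TC4-2A, 3900 to 4040 CPM in TL4-2A and 2640 to 2700 CPM in T-REx libraries, most of it from IRS4. The summed level of 8 markers of blood, liver, endothelium, fibroblasts and muscle was 6.39 to 6.89 CPM in TC4-2A, 9.87 to 11.2 CPM in TL4-2A and 6.63 to 7.95 CPM in T-REx libraries. Nearly all of that came from MYH3, an embryonic myosin, while PTPRC, ALB, CDH5 and DCN had at most 6 counts in any library.

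The bases before the starts of ALDH18A1 and OAT are shown because these genes open the routes from glutamate and from ornithine to P5C, and OAT was lower in both lines while ALDH18A1 did not pass the test. The sequences are from RefSeq on GRCh38.p14, minus strand, read 5′ to 3′. Of the proline genes, a promoter was matched for 3 of 6, these being ALDH18A1, OAT and ALDH4A1. The ALDH18A1 window is the 250 bases at chr10:95656712-95656961. The OAT window is the 197 bases at chr10:124418977-124419173 that lie outside the Gencode gene. Capitals mark CCAAT, a motif common in promoters, on either strand.
ALDH18A1: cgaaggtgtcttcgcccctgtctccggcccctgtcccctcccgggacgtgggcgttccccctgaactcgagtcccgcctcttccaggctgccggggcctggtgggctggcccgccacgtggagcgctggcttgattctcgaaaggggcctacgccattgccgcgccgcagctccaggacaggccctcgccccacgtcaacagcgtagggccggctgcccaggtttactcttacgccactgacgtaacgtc
OAT: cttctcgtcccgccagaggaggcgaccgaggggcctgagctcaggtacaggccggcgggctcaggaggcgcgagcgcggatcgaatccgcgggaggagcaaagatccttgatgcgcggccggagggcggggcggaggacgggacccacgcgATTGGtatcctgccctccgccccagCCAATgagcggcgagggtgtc
A search for 3 motifs covered both strands, and none of them contains another. They were TGATGNAA, the form bound by C/EBP-ATF dimers, TGACGTCA, the cyclic AMP response element, and CCAAT. The OAT window held CCAAT at 99 and 74 bases before the RefSeq start, and neither of the other motifs. The ALDH18A1 window held none of the 3. Of 35116 promoter windows of 250 bases, 3.14% held TGATGNAA, 1.65% held TGACGTCA and 32% held CCAAT. The OAT window of 197 bases is shorter and stops before the RefSeq start, so it cannot be set against these shares directly. All are matches of letters only.

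PYCR1 (ENSG00000183010.17) lies on the minus strand of chromosome 17, at chr17:81932384-81942412 of GRCh38. It had 0, 0 and 0 counts in TC4-2A libraries and 0, 0 and 1 counts in TL4-2A libraries, against 309, 384 and 266 counts in T-REx libraries. In CPM, T-REx libraries had 16.4, 17.8 and 13.9, a mean of 16.0 ± 1.99 (SD, n = 3). The loss was shared by all 6 libraries of the lines with a construct. Taking 3 counts over the group as the limit that a count of 0 allows, PYCR1 was at least 320.1-fold lower in TC4-2A cells than in T-REx cells. In TL4-2A cells it was 831-fold lower, with an exact 95% interval of 148.7 to 32840 that covers counting error only. That ratio rests on the 1 read in TL4-2A replicate 3. Without that library PYCR1 was at least 188.9-fold lower, by the same limit of 3 counts, and without TL4-2A replicate 2 it was 530-fold lower (94.85 to 20940). In libraries from whole cultures, fewer cells with an RNA and less of it per cell cannot be told apart.

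**Figure D1:**
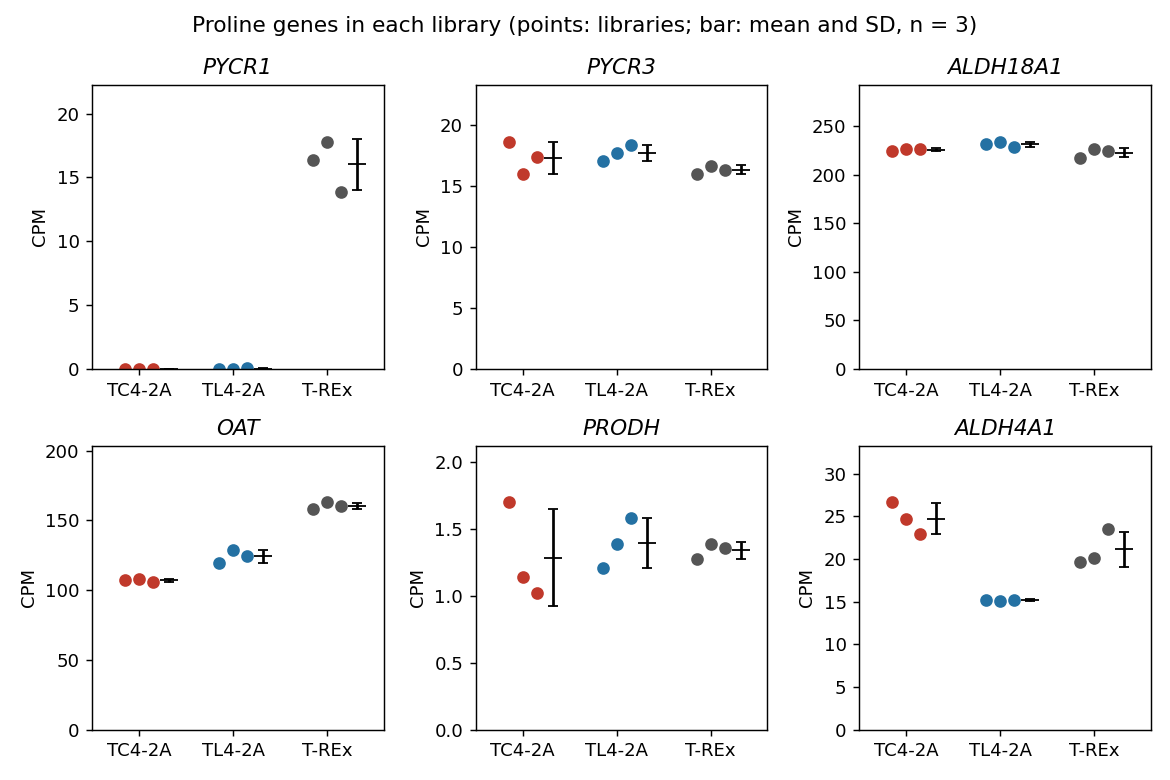
CPM of the 6 proline genes in the 9 libraries, by line, on linear axes that start at 0, with the mean and SD of 3 libraries beside the points. PYCR1 is at or near 0 in 6 libraries, OAT is lowest in TC4-2A and highest in T-REx cells, and ALDH4A1 is lowest in TL4-2A cells.

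Among genes with at least 10 CPM in T-REx cells, few had a pattern like that of PYCR1. PYCR1 was the 1 such gene under 0.5 CPM in all 6 TC4-2A and TL4-2A libraries. Genes with a lower T-REx level were not compared, such as PAX7, with 0 CPM in both lines against 0.685 CPM in T-REx cells. Likeness was measured over all 9 libraries as the mean absolute difference in log2(CPM + 0.5), centred on T-REx cells, for 10800 other genes. The T-REx libraries add little to this distance, since each gene is centred on them. NALCN, a sodium leak channel, was the nearest at 0.712. It averaged 0.697 ± 0.159 CPM in TC4-2A, 1.37 ± 0.414 CPM in TL4-2A and 23.2 ± 0.478 CPM in T-REx cells (SD, n = 3 each). TENM1, a teneurin of the cell surface, was next at 0.780, with 0.634 ± 0.191 CPM in TC4-2A, 0.596 ± 0.106 CPM in TL4-2A and 16.5 ± 1.52 CPM in T-REx cells. NALCN and TENM1 thus kept some counts in every library. The genes after them were low in 1 line more than in the other. CEBPE, a myeloid transcription factor, was at 1.27, and had 0.167 ± 0.0207 CPM in TC4-2A, 8.59 ± 1.00 CPM in TL4-2A and 43.8 ± 1.71 CPM in T-REx cells. MAP7D2 and TSHZ2 followed at 1.82 and 1.84. MAP7D2 was low in TL4-2A cells only, at 0.994 ± 0.196 CPM, against 55.2 ± 2.06 CPM in TC4-2A and 47.4 ± 1.69 CPM in T-REx cells. These genes were picked by the likeness of their values, so no test is given.

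The genes around PYCR1 were still expressed. The 5 tested genes on each side span 136 kb. In TC4-2A against T-REx cells, 2 of these 10 were higher, 2 were lower and 6 did not pass the test (edgeR quasi-likelihood, Benjamini-Hochberg adjusted p under 0.05), with a median log2 fold change of 0.06. In TL4-2A against T-REx cells, 3 were higher, 2 were lower and 5 did not pass, with a median of 0.08. Over all genes tested 28.8% passed in the TC4-2A and 44.3% in the TL4-2A comparison, so the shares around PYCR1 were near those of all genes. On the lower-coordinate side, MAFG, a small MAF transcription factor, averaged 30.8 CPM in TC4-2A, 32.3 CPM in TL4-2A and 31.0 CPM in T-REx cells. The lncRNA gene MILIP, next to PYCR1, was lower in both lines, with 2.28 CPM in TC4-2A, 1.87 CPM in TL4-2A and 3.13 CPM in T-REx cells. Its log2 fold change was -0.45 in TC4-2A (SE 0.17, edgeR adjusted p = 0.0441) and -0.74 in TL4-2A cells (SE 0.19, edgeR adjusted p = 0.00121). The TC4-2A call was lost without any 1 of the 6 libraries compared (edgeR adjusted p = 0.0554 to 0.123), with DESeq2 (adjusted p = 0.146) and without the expression filter (adjusted p = 0.0725).

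On the other side, ASPSCR1, known for tethering glucose transporter vesicles, had 29.5 CPM in TC4-2A, 34.3 CPM in TL4-2A and 27.2 CPM in T-REx cells, and passed the test in TL4-2A cells (log2 fold change 0.33, SE 0.05, edgeR adjusted p = 1.75e-06). Without TC4-2A replicate 3 it also passed in TC4-2A cells (edgeR adjusted p = 0.0425). CENPX, a centromere protein, had 43.2 CPM in TC4-2A, 38.6 CPM in TL4-2A and 41.3 CPM in T-REx cells. Between MILIP and ASPSCR1, NOTUM, a secreted Wnt deacylase, had too few counts for the test, with 7, 10 and 10 in TC4-2A, 3, 5 and 1 in TL4-2A and 6, 13 and 9 in T-REx libraries. Genes that overlap PYCR1 were nearly silent in all lines. MYADML2, on the same strand, had 1 count in total over the 9 libraries, and an antisense lncRNA gene that shares 450 exonic bases with PYCR1 had 0 to 8 counts per library. Whether the DNA at PYCR1 differed between the lines was not tested.

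The cytosolic reductase gene PYCR3 did not pass the test in either line. PYCR3 (ENSG00000104524.14, chromosome 8, minus strand) had 18.6, 16.0 and 17.4 CPM in TC4-2A and 17.1, 17.7 and 18.3 CPM in TL4-2A, against 16.0, 16.7 and 16.3 CPM in T-REx libraries. The TC4-2A libraries overlapped those of T-REx, while the 3 TL4-2A libraries all lay above them by a small margin. The ratio to T-REx cells was 1.06 in TC4-2A (95% interval 0.960 to 1.17, edgeR adjusted p = 0.411) and 1.08 in TL4-2A cells (0.980 to 1.2, edgeR adjusted p = 0.192). A rise in PYCR3 above 1.17-fold in TC4-2A or 1.2-fold in TL4-2A cells thus lay outside the 95% interval. TIGD5, on the opposite strand, shares 15 exonic bases with PYCR3.

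ALDH18A1, which makes P5C from glutamate, was the most highly expressed of these genes per length, and did not pass the test in either line. ALDH18A1 (ENSG00000059573.9, chr10:95605941-95656711, minus strand) had 224, 226 and 227 CPM in TC4-2A and 231, 234 and 228 CPM in TL4-2A, against 217, 226 and 225 CPM in T-REx libraries. The ratio to T-REx cells was 1.01 in TC4-2A (95% interval 0.975 to 1.05, edgeR adjusted p = 0.649) and 1.04 in TL4-2A cells (0.998 to 1.08, edgeR adjusted p = 0.113). The TL4-2A libraries all lay above those of T-REx, by a margin that did not pass the test. At this depth, with 3744 to 4872 counts per library, the intervals leave room for a rise of at most 1.08-fold.

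OAT, which makes P5C from ornithine, was lower in both lines. OAT (ENSG00000065154.12, chr10:124397303-124418976, minus strand) had 107, 108 and 106 CPM in TC4-2A and 119.5, 129 and 125 CPM in TL4-2A, against 158, 163 and 160.2 CPM in T-REx libraries. The libraries of the 3 lines did not overlap. OAT fell to 107 ± 1.26 CPM in TC4-2A cells, against 160.3 ± 2.47 CPM in T-REx cells (SD, n = 3 each), a log2 fold change of -0.58 (SE 0.03, edgeR adjusted p = 2e-16). It fell to 124 ± 4.54 CPM in TL4-2A cells, a log2 fold change of -0.37 (SE 0.03, edgeR adjusted p = 2.49e-11). In percent, these are changes of -33.2% and -22.5%. TC4-2A cells were also below TL4-2A cells, by a log2 difference of -0.22 (SE 0.04, edgeR adjusted p = 4.48e-06). These calls held under all alternatives, each left-out library included. OAT has processed pseudogenes, and how reads with several matches were counted is not stated in the methods or labels.

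Of the genes of proline breakdown, PRODH did not pass the test in either line and ALDH4A1 passed it in both. PRODH (ENSG00000100033.17, chr22:18912777-18936553, minus strand) was barely expressed, with 34, 24 and 19 counts in TC4-2A and 20, 26 and 26 counts in TL4-2A, against 24, 30 and 26 counts in T-REx libraries. In CPM these are 1.70, 1.14 and 1.02 in TC4-2A and 1.21, 1.39 and 1.58 in TL4-2A, against 1.27, 1.39 and 1.36 in T-REx libraries. The lines overlapped. The ratio to T-REx cells was 0.961 in TC4-2A (95% interval 0.676 to 1.37, edgeR adjusted p = 0.900) and 1.04 in TL4-2A cells (0.727 to 1.49, edgeR adjusted p = 0.881), so changes within these wide bounds were not detectable at this depth. DGCR6, on the opposite strand, shares 675 exonic bases with PRODH, and PRODH has a close pseudogene copy, so its few reads are uncertain.

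ALDH4A1 (ENSG00000159423.17, chr1:18871430-18902724, minus strand) had 26.6, 24.6 and 22.9 CPM in TC4-2A and 15.2, 15.03 and 15.2 CPM in TL4-2A, against 19.7, 20.2 and 23.5 CPM in T-REx libraries. The TL4-2A libraries lay below all others, while those of TC4-2A and T-REx overlapped. ALDH4A1 fell to 15.2 ± 0.111 CPM in TL4-2A cells, against 21.1 ± 2.10 CPM in T-REx cells (SD, n = 3 each), a log2 fold change of -0.48 (SE 0.07, edgeR adjusted p = 1.46e-06). In TC4-2A cells it averaged 24.7 ± 1.85 CPM, with a log2 fold change of 0.23 (SE 0.07, edgeR adjusted p = 0.00679). That call was lost without TC4-2A replicate 1 (edgeR adjusted p = 0.0834), without T-REx replicate 1 (edgeR adjusted p = 0.0557) and without T-REx replicate 2 (edgeR adjusted p = 0.0539). Between the lines with a construct the gap was wide, at a log2 difference of 0.71 for TC4-2A minus TL4-2A cells (SE 0.07, edgeR adjusted p = 2.09e-10).

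**Figure D2:**
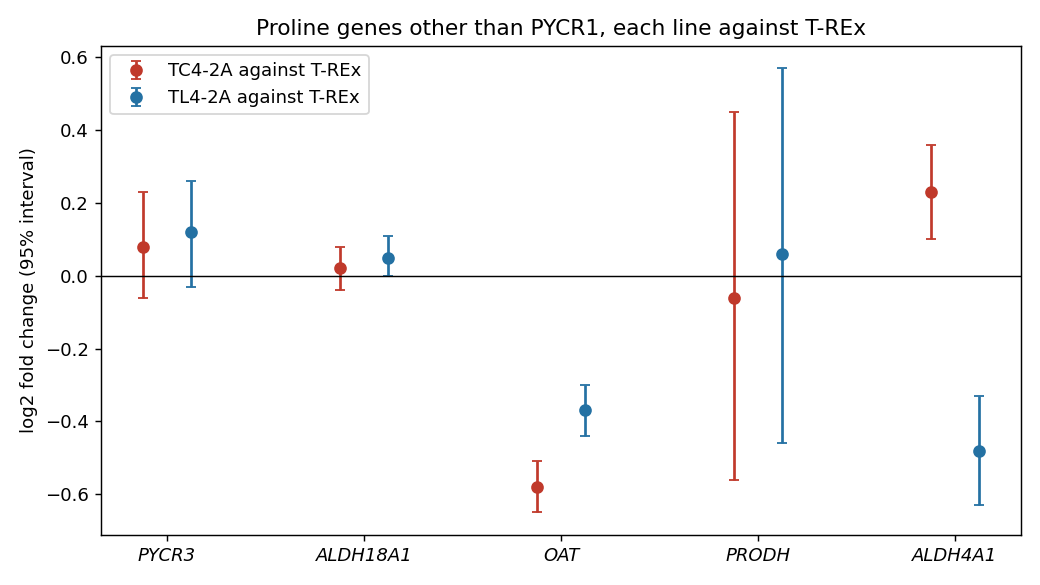
Log2 fold change of the proline genes other than PYCR1, with 95% intervals from edgeR, for each line with a construct against T-REx cells. The intervals of PYCR3 and PRODH include 0 in both lines, those of ALDH18A1 lie at or across 0, those of OAT lie below 0 in both, and ALDH4A1 is above 0 in TC4-2A (0.23) and below 0 in TL4-2A cells (-0.48).

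Of the 5 proline genes other than PYCR1, 2 passed the test in TC4-2A against T-REx cells (1 higher, 1 lower), with a median log2 fold change of 0.02. In TL4-2A against T-REx cells 2 passed, both lower, with a median of 0.05, and in TC4-2A against TL4-2A cells 2 passed (1 higher, 1 lower), with a median of -0.03. Over all genes tested the shares that passed were 28.8%, 44.3% and 35.4% in these comparisons, and the median log2 fold changes were 0.00367, -0.000572 and -0.000537. Of all genes, 14.2% were higher in TC4-2A and 21.9% in TL4-2A than in T-REx cells. With 5 genes, 2 calls are near the background share. Libraries did not overlap for 1 gene in TC4-2A and for 4 genes in TL4-2A against T-REx cells, where 40.3% and 51.6% of all genes did not overlap, and for 3 genes between TC4-2A and TL4-2A cells, where 44.9% of all genes did not. Both comparisons share the T-REx libraries.

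Per length, the order in T-REx cells was ALDH18A1 (59.2 ± 1.26 CPM per kb), OAT (47.3 ± 0.729), ALDH4A1 (5.82 ± 0.578), PYCR1 (5.55 ± 0.688), PYCR3 (4.14 ± 0.0915) and PRODH (0.154 ± 0.00695). In that order only ALDH4A1 and PYCR1 overlapped in their libraries. In TC4-2A cells the order was ALDH18A1 (60.01 ± 0.351 CPM per kb), OAT (31.6 ± 0.373), ALDH4A1 (6.81 ± 0.508), PYCR3 (4.39 ± 0.333), PRODH (0.148 ± 0.0415) and PYCR1. In TL4-2A cells PYCR3 (4.49 ± 0.161 CPM per kb) stood above ALDH4A1 (4.17 ± 0.0305), with no overlap between them. ALDH18A1 (61.5 ± 0.741 CPM per kb) and OAT (36.7 ± 1.34) kept the top places there. The gene for the ornithine route was thus below that for the glutamate route in all lines, and by most in TC4-2A cells.

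The genes next to OAT and ALDH4A1 moved in the same direction in some comparisons, a check chosen after the values of these genes were seen. Around OAT, 8 of the 10 nearest tested genes were lower in TC4-2A than in T-REx cells and 0 were higher, with a median log2 fold change of -0.54. OAT itself was at -0.58 there. BUB3, a spindle checkpoint gene, had 178 CPM in TC4-2A, 245 CPM in TL4-2A and 256 CPM in T-REx cells. In TL4-2A cells 3 of the 10 were lower and 2 higher, with a median of 0.03, while OAT was at -0.37. Around ALDH4A1, 8 of 10 neighbours were lower in TL4-2A than in T-REx cells and 0 were higher, with a median of -0.49, near the -0.48 of ALDH4A1. In TC4-2A cells 4 were lower and 0 higher, with a median of -0.13, whereas ALDH4A1 was at 0.23. Over all genes 14.6% were lower in the TC4-2A and 22.5% in the TL4-2A comparison with T-REx. The part of these stretches in the OAT and ALDH4A1 results was not tested.

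**Figure D3:**
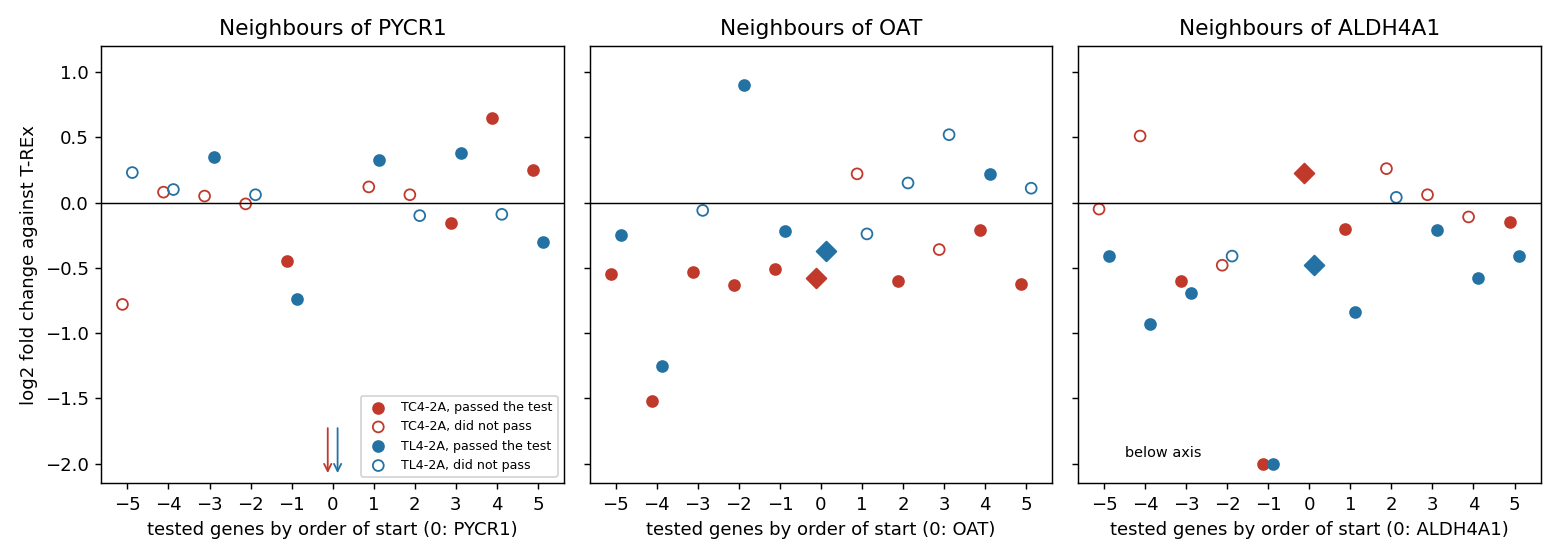
Log2 fold change against T-REx cells of the 5 tested genes on each side of PYCR1, OAT and ALDH4A1, in order of their start, for TC4-2A and TL4-2A cells. Diamonds at 0 mark OAT and ALDH4A1, arrows mark PYCR1, which is below the axis, filled circles passed the test, and the circles on the lower edge are PAX7 (-6.72 in both lines), while neighbours of PYCR1 lie on both sides of 0, those of OAT lie mostly below 0 in TC4-2A and those of ALDH4A1 in TL4-2A cells.

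Among other genes of glutamate, ornithine and proline turnover, 2 passed the test in TC4-2A and 6 in TL4-2A against T-REx cells. The list also takes in NADK2 and HOGA1. Of its 11 genes 9 were tested, and PRODH2 and ARG1 had too few counts. In TC4-2A against T-REx cells 1 was higher, 1 was lower and 7 did not pass, with a median log2 fold change of -0.01. In TL4-2A against T-REx cells 1 was higher, 5 were lower and 3 did not pass, with a median of -0.15. Of all genes 28.8% passed in TC4-2A (14.2% higher, 14.6% lower) and 44.3% in TL4-2A against T-REx cells (21.9% higher, 22.5% lower). GLS2, the liver-type glutaminase, had 6.18, 6.58 and 5.55 CPM in TL4-2A, against 13.2, 12.2 and 10.2 CPM in T-REx libraries, a log2 fold change of -0.96 (SE 0.11, edgeR adjusted p = 1.97e-09). The TC4-2A libraries had 11.5, 11.6 and 11.6 CPM of GLS2, within the T-REx range.

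ODC1 draws ornithine into polyamines. It had 282, 285 and 283 CPM in TC4-2A and 173, 177 and 170.3 CPM in TL4-2A, against 263, 268 and 266 CPM in T-REx libraries. ODC1 was thus slightly higher in TC4-2A (log2 fold change 0.09, SE 0.03, edgeR adjusted p = 0.00896) and lower in TL4-2A cells (-0.62, SE 0.03, edgeR adjusted p = 6.18e-20). The TC4-2A call was lost without TC4-2A replicate 2 (edgeR adjusted p = 0.0632). NADK2, the mitochondrial NAD kinase, makes the NADP that P5C synthesis from glutamate uses. It had 62.5, 66.9 and 64.2 CPM in TC4-2A and 45.8, 42.4 and 42.4 CPM in TL4-2A, against 63.6, 66.2 and 65.2 CPM in T-REx libraries. NADK2 fell in TL4-2A cells by 0.58 on the log2 scale (SE 0.05, edgeR adjusted p = 1.69e-12). Of its 10 tested neighbours 7 were lower and 0 higher there, with a median of -0.65, where 22.5% of all genes were lower. These neighbours span 1258 kb. In TC4-2A cells 3 of the 10 were lower and 0 higher, with a median of -0.17, where 14.6% of all genes were lower. NADK2 itself was at -0.01 in TC4-2A cells. The part of this stretch in the NADK2 result was not tested. HOGA1, an enzyme of hydroxyproline breakdown, fell to 2.84 ± 0.303 CPM in TC4-2A cells, against 4.6 ± 0.130 CPM in T-REx cells (log2 fold change -0.70, SE 0.15, edgeR adjusted p = 0.000554), with 4.16 ± 0.737 CPM in TL4-2A cells.

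Of 7 carriers of proline 4 were tested, and SLC6A7, SLC6A20 and SLC36A2 had too few counts. In TC4-2A against T-REx cells 0 were higher and 2 were lower, with a median of -0.10, and in TL4-2A against T-REx cells 1 was higher and 3 were lower, with a median of -0.25. Among all genes tested, 28.8% passed in TC4-2A (14.2% higher, 14.6% lower) and 44.3% in TL4-2A against T-REx cells (21.9% higher, 22.5% lower). SLC38A2, a sodium-coupled carrier of small neutral amino acids that includes proline among its substrates, had 269, 271 and 277 CPM in TC4-2A and 242, 239 and 250.3 CPM in TL4-2A, against 309, 314 and 315 CPM in T-REx libraries. Its log2 fold change was -0.20 in TC4-2A (SE 0.03, edgeR adjusted p = 2.89e-07) and -0.36 in TL4-2A cells (SE 0.03, edgeR adjusted p = 2.06e-13). SLC36A4, another amino acid carrier, was lower by similar amounts, with log2 fold changes of -0.22 (TC4-2A, edgeR adjusted p = 0.000499) and -0.38 (TL4-2A, edgeR adjusted p = 1.19e-07). In TL4-2A cells SLC6A15, a carrier of neutral amino acids best known in brain, was at -0.14 (edgeR adjusted p = 0.00482) and SLC36A1, a proton-coupled carrier of lysosomes, at 0.16 (edgeR adjusted p = 0.00954). The SLC6A15 call was lost without T-REx replicate 2 (edgeR adjusted p = 0.0869) and that of SLC36A1 without TL4-2A replicate 1 (edgeR adjusted p = 0.0551).

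The list of users of proline, taken broadly, has 11 genes, and all were tested. It includes prolyl hydroxylases and their partners, and prolyl hydroxylases act on proline already built into proteins. In TC4-2A against T-REx cells 1 was higher and 3 were lower, with a median of -0.02, and in TL4-2A against T-REx cells 2 were higher and 4 were lower, with a median of -0.13. That is 4 of 11 called in TC4-2A and 6 of 11 in TL4-2A cells, near the 28.8% and 44.3% of all genes. P3H2, a collagen prolyl 3-hydroxylase, was lower in both lines, with 8.48 ± 1.04 CPM in TC4-2A and 7.91 ± 1.11 CPM in TL4-2A, against 13.5 ± 0.382 CPM in T-REx cells (SD, n = 3 each). Its log2 fold change was -0.68 (edgeR adjusted p = 9.05e-07) in TC4-2A and -0.77 (edgeR adjusted p = 8.58e-08) in TL4-2A cells. P4HA2, a catalytic subunit of prolyl 4-hydroxylase, was also lower in both, at -0.32 (TC4-2A, edgeR adjusted p = 1.05e-05) and -0.42 (TL4-2A, edgeR adjusted p = 6.64e-08). Its partner subunit P4HB, protein disulfide isomerase, was higher in TL4-2A cells at 0.32 (edgeR adjusted p = 8.28e-12), as was P3H3, of the prolyl 3-hydroxylase family, at 0.60 (edgeR adjusted p = 9.49e-11). EPRS1, which charges tRNAs with glutamate and proline, was picked out after its values were seen. It had 389.95 ± 13.8 CPM in TC4-2A and 336 ± 4.16 CPM in TL4-2A, against 350.4 ± 5.75 CPM in T-REx cells, and its TC4-2A log2 fold change was 0.15 (SE 0.03, edgeR adjusted p = 2.88e-05).

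ATF4 is the transcription factor of the amino acid response, known to raise genes of amino acid synthesis, PYCR1 and ALDH18A1 among them. ATF4 and 10 other genes of the response were all tested. In TC4-2A against T-REx cells 5 were higher and 2 were lower, with a median of 0.08, and in TL4-2A against T-REx cells 1 was higher and 7 were lower, with a median of -0.19. Of all genes 14.2% were higher and 14.6% lower in TC4-2A, and 21.9% higher and 22.5% lower in TL4-2A against T-REx cells. In TC4-2A against TL4-2A cells 8 were higher and 0 were lower, with a median of 0.27, where 17.6% of all genes were higher. ATF4, picked out after its values were seen, averaged 549 ± 7.82 CPM in TC4-2A and 457 ± 13.7 CPM in TL4-2A, against 475 ± 17.3 CPM in T-REx cells. Its log2 fold change was 0.21 in TC4-2A (SE 0.03, edgeR adjusted p = 3.83e-07) and -0.06 in TL4-2A cells (SE 0.03, edgeR adjusted p = 0.110). The TL4-2A difference passed the test without TL4-2A replicate 2 (edgeR adjusted p = 0.0298) or T-REx replicate 1 (edgeR adjusted p = 0.0169). SLC7A11, which exchanges glutamate for cystine, was higher in both lines. It had 98.7, 108 and 109 CPM in TC4-2A and 74.3, 76.2 and 74.2 CPM in TL4-2A, against 64.9, 61.1 and 67.0 CPM in T-REx libraries, with log2 fold changes of 0.71 (TC4-2A, edgeR adjusted p = 1.29e-15) and 0.22 (TL4-2A, edgeR adjusted p = 0.000152).

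Members of the response did not all go the way of SLC7A11. ASNS, asparagine synthetase, had 15.3 ± 0.434 CPM in TC4-2A and 11.2 ± 0.844 CPM in TL4-2A, against 11.6 ± 0.484 CPM in T-REx cells, and its TC4-2A log2 fold change was 0.40 (SE 0.08, edgeR adjusted p = 0.000164). DDIT3, a stress-induced transcription factor, was lower in both lines, at -0.39 (TC4-2A, edgeR adjusted p = 0.000531) and -0.32 (TL4-2A, edgeR adjusted p = 0.00303). CHAC1, which degrades glutathione, was lower in TL4-2A cells at -0.43 (edgeR adjusted p = 0.0247), a call that was lost with DESeq2 (adjusted p = 0.0774), without TL4-2A replicate 1 (edgeR adjusted p = 0.078) and without T-REx replicate 3 (edgeR adjusted p = 0.0844). ALDH18A1, for comparison, had log2 fold changes of 0.02 (TC4-2A) and 0.05 (TL4-2A). The authors report regions of some chromosomes that are rich in raised genes in the line with the circular RNA. The neighbours of SLC7A11, ASNS and the other genes of this list were not compared. The part of such regions, or of ATF4 itself, in the changes of these genes was therefore not tested.

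**Figure D4:**
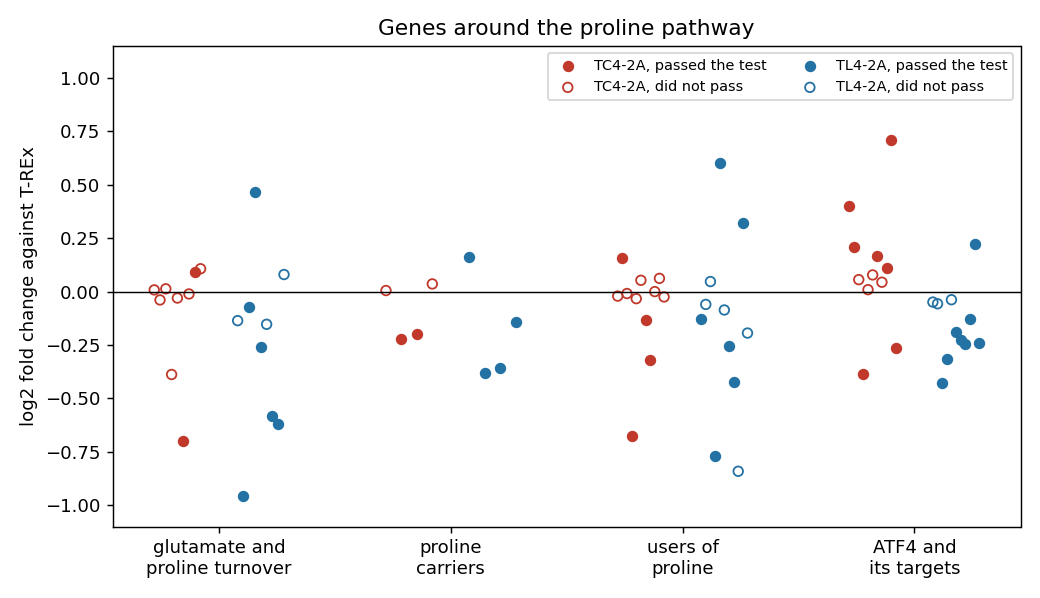
Log2 fold change against T-REx cells of the tested genes of 4 lists, namely turnover of glutamate, ornithine and proline, carriers of proline, users of proline, and ATF4 with its targets, for TC4-2A and TL4-2A cells. Each point is a gene, filled where it passed the test, and the ATF4 list lies mostly at or above 0 in TC4-2A and below 0 in TL4-2A cells, with medians of 0.08 and -0.19.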

How the data were processed

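RNA of the 3 lines, with 3 libraries each, was depleted of ribosomal RNA and made into directional paired-end libraries. The authors mapped reads to GRCh38 with HISAT2 and deposited raw counts per Gencode v33 gene from featureCounts. Neither the methods nor the labels state program versions, the strand and multiple-match options of featureCounts, or separate cultures within a line, so the p-values cover no more than the variation among these libraries, which may be technical. The columns of the count table were matched to lines by their names together with the study's methods. Fold changes and p-values that the authors deposited from DESeq2 were not used.

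Counts of 60648 genes were used and 3 damaged lines left out. Gencode v44 held 99.69% of the IDs and gave names, positions and exon lengths. edgeR 4.0.16 in R 4.3.3 (filterByExpr, TMM, 1 quasi-likelihood model over 9 libraries) gave all tests across genes, with a gene called when its Benjamini-Hochberg adjusted p was under 0.05. The edgeR step was first tested on simulated data, with 200 genes changed in TC4-2A libraries. It recovered 81% of the genes changed 1.5-fold and 95% of those changed 2-fold, and 12 of its 188 calls were false. Far fewer genes were changed there than were called in the data. Exact counting intervals came from scipy 1.17.1.

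The genes and lists were chosen with earlier results of these data known. Named were the proline genes, NADK2, up to 4 called genes per list with the largest change, the 2 tested neighbours on each side of PYCR1, and the 5 genes most like it. Alternatives were DESeq2 1.42.0, the RLE normalization, all genes with any count, a minimum of 10 counts per library, separate fits per comparison, a replicate block and each library left out. The neighbours of OAT, ALDH4A1 and NADK2 were added after the data were seen, as were the PYCR1 ratios without a TL4-2A library. Some genes of these lists, and a comparison planned for them, are not reported here.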

Additional observations from a re-analysis of the deposited data

Results flagged for a closer look

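The lines with a construct were compared with each other, and 17 of the proline and list genes named passed that test. Of all genes tested 35.4% passed it. List genes were named mainly for a large change against T-REx cells, which favours a difference between the lines. The 17 calls thus cannot be set against that share. Values are log2 differences, TC4-2A minus TL4-2A cells, with adjusted p-values from edgeR's quasi-likelihood test. Among the proline genes, OAT was lower in TC4-2A cells (-0.22, edgeR adjusted p = 4.48e-06) and ALDH4A1 was higher (0.71, edgeR adjusted p = 2.09e-10). Higher in TC4-2A cells on the list of glutamate, ornithine and proline turnover were GLS2 (0.92, edgeR adjusted p = 5.47e-09), ODC1 (0.71, edgeR adjusted p = 7.58e-22) and NADK2 (0.57, edgeR adjusted p = 2.85e-12). HOGA1 (-0.54, edgeR adjusted p = 0.00774) was lower.

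Among carriers, SLC36A4 (0.16, edgeR adjusted p = 0.018), SLC38A2 (0.16, edgeR adjusted p = 1.49e-05) and SLC6A15 (0.18, edgeR adjusted p = 0.000632) were higher in TC4-2A cells and SLC36A1 (-0.16, edgeR adjusted p = 0.0146) was lower. Among users of proline, EPRS1 was higher (0.21, edgeR adjusted p = 5.53e-08), and P3H3 (-0.64, edgeR adjusted p = 2.73e-11) and P4HB (-0.26, edgeR adjusted p = 1.47e-09) were lower. Of the ATF4 response, ATF4 (0.26, edgeR adjusted p = 1.3e-09), SLC7A11 (0.49, edgeR adjusted p = 1.31e-11), CHAC1 (0.49, edgeR adjusted p = 0.0132) and ASNS (0.45, edgeR adjusted p = 3.39e-05) were higher. Without 1 library, calls were lost for HOGA1 (TL4-2A replicate 1), SLC36A4 (TC4-2A replicate 2 or TL4-2A replicate 1), SLC36A1 (replicate 1 of either line) and CHAC1 (TC4-2A replicate 2 or TL4-2A replicate 1), with edgeR adjusted p-values of 0.05 (rounded) to 0.156. Groups of 3 libraries are too small for a test of outlying libraries.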

How the results depend on the processing

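The calls of OAT in both lines and of ALDH4A1 in TL4-2A cells held under every alternative run. The number of proline genes called in TC4-2A against T-REx cells was 1 to 2 over the left-out libraries, with ALDH4A1 lost without TC4-2A replicate 1, T-REx replicate 1 or T-REx replicate 2, and was 2 under all other alternatives. Over all genes, TC4-2A against T-REx gave 5607 calls, 4274 with DESeq2, 5703 with the replicate number as a block, and 4686 to 5674 with a library left out. For TL4-2A against T-REx these were 8633, 7044, 8656 and 7497 to 8816, and for TC4-2A against TL4-2A cells 6884, 5488, 6894 and 5979 to 6953. The block changed no proline call. Libraries of the same number in different lines had deviations correlated at -0.0681 to 0.107, and not every library correlated best with its own number, so the numbers were not taken to pair them. PYCR1 could not be fitted with at least 10 counts in every library.

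Of 1301 values of named genes under the alternatives, 1250 kept their direction and call, 28 lost the call, 4 gained it and 19 changed sign, all of the last without a call and with a library left out. Outside the left-out libraries, 7 lost the call, with DESeq2 or no filter, for MILIP, CHAC1, SLC36A4 and SLC36A1. With a library left out, on the log2 scale, TC4-2A minus T-REx ranged from -0.31 to 0.074 for PRODH, -0.13 to 0.036 for GLS2, -0.039 to 0.011 for NADK2, -0.032 to 0.041 for SLC36A1, -0.089 to 0.054 for P3H3, -0.051 to 0.11 for CHAC1 and -0.044 to 0.021 for MAFG. TL4-2A minus T-REx ranged from -0.04 to 0.14 for PRODH and -0.094 to 0.0077 for ASNS. TC4-2A minus TL4-2A ranged from -0.36 to 0.02 for PRODH, -0.088 to 0.024 for PYCR3 and -0.016 to 0.17 for P3H2. The cause of these shifts was not tested. PRODH had 19 to 34 counts per library.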
